A study of Mus musculus with 5 samples.

Results

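The glutathione peroxidases are a family of 8 mouse genes, Gpx1 to Gpx8, and they are followed here through the striatum of 5 mice. Their probes were found by gene symbol in the table of the array's probes, and 7 of the 8 genes had one, among 17710 named genes on the array. They held 8 of the 26423 probes, with 2 for Gpx4 and 1 for each of the others. No probe carried the symbol Gpx2, the gastrointestinal member, which was not analysed here. The family was chosen by measured values of this same comparison, namely its level against olfactory receptor probes and its difference between the groups, so those values are given as a description and without a test.

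The 3 HD_miR196a mice were double transgenic, with a transgene for the precursor of the microRNA miR-196a beside a transgene that models Huntington's disease (HD), and the 2 HD mice had only the disease transgene. The disease transgene joins GFP to the first exon of human huntingtin, HTT, carrying 84 CAG repeats, and a human ubiquitin promoter, which is active in most cell types, drove both transgenes. All mice were male, of strain FVB and 12 months old, and mice lacking the disease transgene were not analysed here. RNA of each mouse was labelled with Cy5 and measured on a single-colour array, and the authors merged 2 technical repeats of each mouse. Replicates are therefore mice.

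Glutathione peroxidases reduce hydrogen peroxide and lipid hydroperoxides with electrons from the tripeptide glutathione, which is then recycled by glutathione reductase. Some members carry selenocysteine in the active site and depend on selenium supply and on a dedicated decoding machinery, while others carry cysteine. Oxidative damage of striatal neurons is a studied feature of HD, and Gpx6 is known from a genetic screen in the striatum of HD mice as a gene whose loss or gain affects the disease model. MicroRNAs repress transcripts that pair with their seed. The mature strand of the overexpressed microRNA is shown as it defines the HD_miR196a group, from RefSeq (GRCm38.p6), with the seed, bases 2 to 8, in capitals. Its level was not analysed here.

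mmu-miR-196a-5p: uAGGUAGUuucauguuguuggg

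The members varied most in Gpx6 between the groups and in Gpx3 between mice, so the sequence upstream of these genes is shown, as the 250 bases before the start used in RefSeq's table (GRCm38.p6, plus strand). The Gpx6 window is chr13:21311953-21312202 and the Gpx3 window is chr11:54902604-54902853. Capitals mark the letters CCAAT on either strand, a common promoter motif, which reads ATTGG where it lies on the opposite strand.

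Gpx6: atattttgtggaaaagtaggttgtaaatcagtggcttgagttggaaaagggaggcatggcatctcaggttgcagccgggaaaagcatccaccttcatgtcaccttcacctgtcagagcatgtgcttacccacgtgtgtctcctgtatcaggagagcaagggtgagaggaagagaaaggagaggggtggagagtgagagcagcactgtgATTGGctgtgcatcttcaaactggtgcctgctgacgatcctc

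Gpx3: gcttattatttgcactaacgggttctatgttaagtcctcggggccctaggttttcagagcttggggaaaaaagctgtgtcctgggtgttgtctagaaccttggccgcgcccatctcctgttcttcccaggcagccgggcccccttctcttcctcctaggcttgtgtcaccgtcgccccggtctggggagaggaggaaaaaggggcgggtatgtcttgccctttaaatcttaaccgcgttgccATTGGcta

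The CCAAT letters were present in 7 of 11 such windows of the 8 genes (Gpx4 has 4 starts with partly overlapping windows) and in 33.8% of 32851 windows of all genes. The letters TGACNNNGC, a core of the antioxidant response element to which the stress regulator NRF2 binds, were in 0 of the 11 and in 10.2% of all windows, again searched on both strands. The array measured nothing at these windows, and a match describes letters only.

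Levels below are log2 of quantile-normalized intensities, in which 1 unit is a doubling, and differences are HD_miR196a minus HD. As a gauge of background, 544 probes of olfactory receptor genes, mostly silent in striatum, had a median level of 4.99 and a 95th percentile of 8.31, and 60.4% of all probes did not exceed that percentile. Gpx1, Gpx3 and the brighter Gpx4 probe exceeded it. The second Gpx4 probe, at a mean of 8.20, lay just under it, and Gpx5, Gpx6, Gpx7 and Gpx8 lay within the olfactory receptor range. The tissue label could be read against medium spiny neuron markers, the principal cells of striatum, and all 7 measured of 9 exceeded the percentile. Whether the dim Gpx probes report transcript or background was not tested. Probes differ in how brightly they report a transcript, so levels are not compared between genes. In this bulk tissue, fewer cells of a type and less RNA per cell cannot be told apart.

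**Figure D1:**
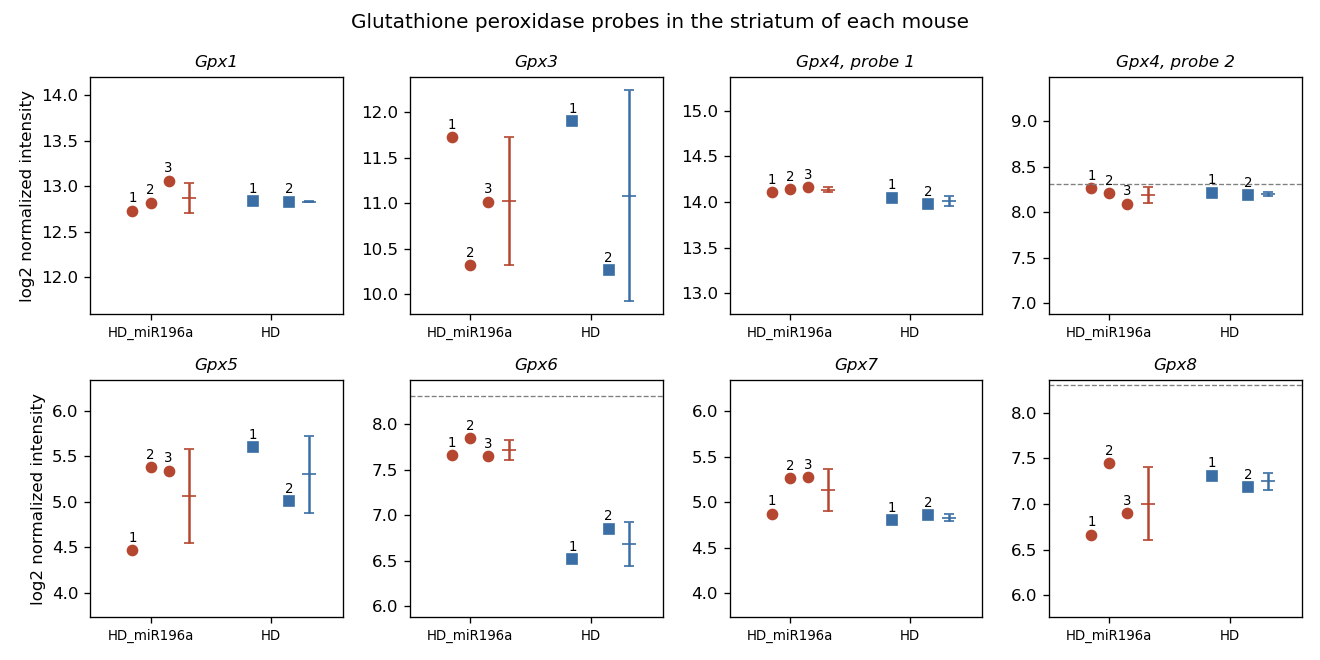
Level of each glutathione peroxidase probe on the log2 scale in each mouse, with HD_miR196a mice as circles on the left and HD mice as squares on the right, numbered by mouse, and with mean and SD beside them. All panels span the same height and the dashed line is the 95th percentile of olfactory receptor probes, 8.31, where it falls in the panel. Gpx6 separated the groups by 1.03, while Gpx3 ranged over 1.64 among mice with both groups spread over most of that range.

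The selenoenzymes of the cell interior were bright and nearly level between the groups. Gpx4 reduces lipid hydroperoxides within membranes and is the enzyme whose loss leads to ferroptosis, an iron-dependent form of cell death. Its bright probe measured 14.10, 14.14 and 14.16 in HD_miR196a mice 1 to 3, against 14.05 and 13.98 in HD mice 1 and 2. Every HD_miR196a mouse was above both HD mice, by a margin that was small on this scale: the difference was 0.12 ± 0.09 (SE), or 1.09-fold. The order did not hold on the deposited intensities, which were 15420, 17179 and 18503 in HD_miR196a mice and 18374 and 17381 in HD mice, and without scaling the difference was -0.07. The dimmer Gpx4 probe measured 8.27, 8.21 and 8.10 in HD_miR196a mice against 8.22 and 8.19 in HD mice, a difference of -0.01 ± 0.10 (SE). The 2 Gpx4 probes thus did not share a separation of the groups. RefSeq also lists 2 Gpx4 pseudogenes, Gpx4-ps1 and Gpx4-ps2, and whether either probe binds their transcripts was not tested.

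Gpx1, the most widespread member, removes hydrogen peroxide in cytosol and mitochondria. It measured 12.73, 12.82 and 13.06 in HD_miR196a mice, against 12.83 and 12.83 in HD mice. The HD mice lay between the lowest and the highest HD_miR196a mouse, and the difference was 0.04 ± 0.13 (SE). Its sign depended on the scaling, at -0.04 with median centring and -0.21 without scaling, a setting that moved the median over all probes by -0.20.

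Gpx3 is the secreted, extracellular glutathione peroxidase of plasma, also a selenoenzyme. It measured 11.72, 10.32 and 11.02 in HD_miR196a mice 1 to 3, against 11.90 and 10.26 in HD mice 1 and 2. The highest and the lowest mouse were both HD mice, and the HD_miR196a mice lay between them. HD_miR196a mice averaged 11.02 ± 0.70 (SD, n = 3), against 11.08 ± 1.16 (SD, n = 2) for HD mice, a difference of -0.06 ± 0.64 (SE). On the deposited scale the mice spanned 1203 to 2924 within HD_miR196a and 1360 to 4193 within HD. The spread within groups, a pooled SD of 0.88, was exceeded by only 0.82% of the 10474 probes above the olfactory receptor percentile, compared with 45.1% that exceeded the spread of Gpx1 and 96.0% that of the bright Gpx4 probe. Between mice of equal number the differences were small, -0.18 for mice 1 and 0.06 for mice 2, and the labels do not say whether equal numbers mark a shared litter or day. Leaving out HD mouse 1 turned the difference to 0.76, leaving out HD mouse 2 gave -0.88, and without mouse 1 of each group it was 0.41, so its direction rested on single mice.

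The mice that were high in Gpx3 also differed in markers of regions around the striatum. Summed over the 6 measured of 7 cortical projection neuron genes, normalized intensity was 5277, 25946 and 19021 for the HD_miR196a mice in order of number, against 5386 and 28619 for the HD mice. The mice numbered 1, the highest in Gpx3, were the lowest in these genes, and none of the genes was at the floor in every mouse. Summed over the 5 of 5 thalamus or pallidum genes it was 5652, 3430 and 5183 in HD_miR196a mice and 5079 and 3590 in HD mice, where the mice lowest in Gpx3, both numbered 2, were also the lowest. The 2 sums thus ran in opposite directions against Gpx3, but the genes of the thalamus or pallidum list did not all follow their sum. Slc17a6, Tcf7l2 and, narrowly, Lhx9 were lowest in the mice numbered 2. Rora was lowest in the mice numbered 1, at 9.98 in HD_miR196a and 10.18 in HD, and Prkcd followed neither order. Slc17a6, a vesicular glutamate transporter of subcortical neurons in that list, measured 11.58, 9.70 and 10.96 in HD_miR196a mice and 11.13 and 9.79 in HD mice. Slc17a7, the cortical transporter, ran the other way, at 8.47, 11.76 and 11.05 in HD_miR196a mice and 8.82 and 11.87 in HD mice. The part of these markers in the Gpx3 values was not tested.

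**Figure D2:**
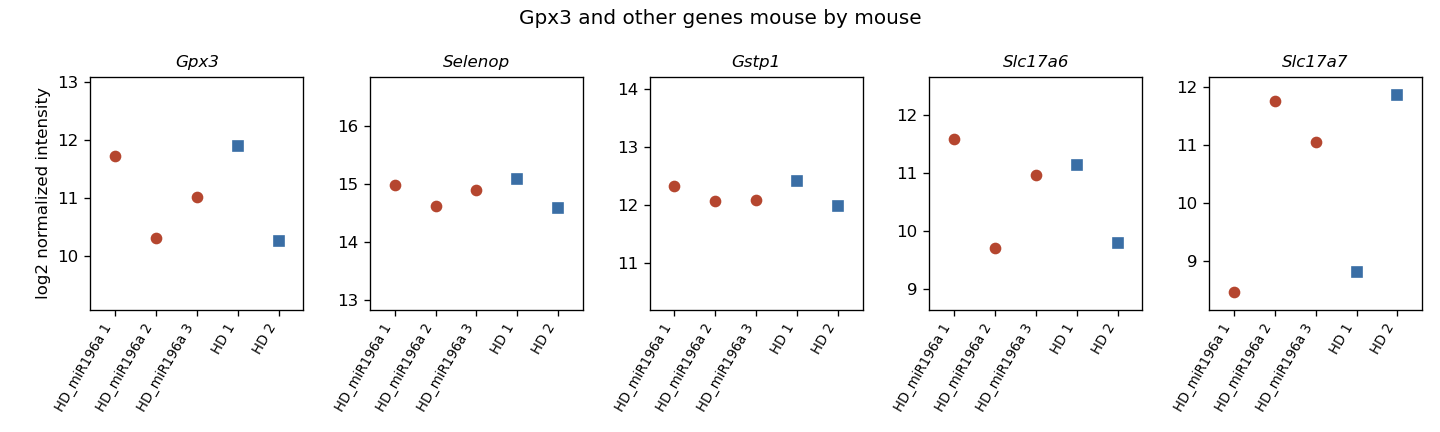
Level of Gpx3, Selenop, Gstp1, Slc17a6 and Slc17a7 on the log2 scale in HD_miR196a mice 1 to 3 (circles) and HD mice 1 and 2 (squares), each panel spanning 4 log2 units. Gpx3, Selenop and Gstp1 rank the 5 mice in the same order, and Slc17a7 is lowest in the mice numbered 1, where Gpx3 is highest. Selenop and Gstp1 are among the 4 of 71 list genes above the olfactory receptor percentile with this order, and both span a narrower range than Gpx3.

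Selenop, the secreted selenoprotein that carries selenium to the brain, put the mice in the same order as Gpx3, with 14.98, 14.61 and 14.90 in HD_miR196a mice and 15.08 and 14.59 in HD mice. So did Gstp1, a glutathione S-transferase, at 12.32, 12.06 and 12.09 in HD_miR196a mice and 12.41 and 11.98 in HD mice. Of the 71 genes of the glutathione and selenium lists above the olfactory receptor percentile, 4 shared this order (Chac1 and Gstm4 besides), or 5.63%, beside 2.84% of all 8648 named genes at such levels. Chac1 and Gstm4 are named because their order matched. By Euclidean distance between mean-centred levels over the 5 mice, the nearest genes to Gpx3 among 9330 probes were Pcbd1 (distance 0.16), Slc8a1 (0.16) and Sncg (0.26). Pcbd1, a cofactor-recycling dehydratase, measured 9.85, 8.62 and 9.22 in HD_miR196a mice and 10.01 and 8.46 in HD mice. Near-level profiles have many neighbours: Taf12 (0.021), Mbtps1 (0.034) and L3mbtl3 (0.038) were nearest to Gpx1, and Setdb1 (0.017), Gmpr2 (0.017) and Dcaf8 (0.034) to Gpx4.

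Gpx6 had the largest difference of the family, on a probe that did not exceed the olfactory receptor percentile in any mouse, so whether it reports transcript or background was not tested. The gene is best known from the olfactory epithelium, and its enzyme has selenocysteine in humans but cysteine in mice. Its probe measured 7.65, 7.84 and 7.65 in HD_miR196a mice, against 6.52 and 6.85 in HD mice. Every HD_miR196a mouse was above both HD mice, and the gap between the groups was wider than the spread within either. HD_miR196a mice averaged 7.71 ± 0.11 (SD, n = 3), against 6.68 ± 0.24 (SD, n = 2) for HD mice, a difference of 1.03 ± 0.15 (SE) in probe signal. The deposited intensities separated in the same way, at 185.5, 220.3 and 193.6 in HD_miR196a mice against 96.4 and 123.7 in HD mice.

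The difference of Gpx6 kept its sign under all 12 alternatives in which its probe was present, but these were not 12 separate checks. The raised floor, the probe filter and the eBayes settings left it at 1.03, and the replicate block repeated the value without HD_miR196a mouse 3. The lowest value was 0.86, when HD mouse 1 was left out, and the highest was 1.20, when HD mouse 2 was. It was 0.87 without scaling. These 3 values moved by more than the pooled SD within groups. Over the array, 1.49% of 26423 probes differed by at least 1 in either direction. Among the 3289 probes with a mean within 0.5 of that of Gpx6, a window set after its value was known, 11 (0.334%) had a larger absolute difference. Of olfactory receptor probes, 87.1% had a lower mean than Gpx6. RefSeq lists GPX6 also as a synonym of Gpx7, and no accession was given for the probe, so the gene behind it rests on the platform's symbol alone.

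Markers of striatal neurons were higher in the same mice as Gpx6. Summed over the 7 measured of 9 medium spiny neuron genes, normalized intensity was 73783 to 80439 in HD_miR196a mice. In HD mice it was 57648 to 61362. Of the 7 genes, 6 were higher in every HD_miR196a mouse than in both HD mice, beside 9.96% of all probes. The sums also separated for ependyma, the ciliated lining of the ventricles, at 2090 to 2423 for HD_miR196a and 1673 to 1772 for HD over 5 of 5 genes. Only 1 of these genes, Ccdc153, had groups that did not overlap, and its mean was under the olfactory receptor percentile. Astrocyte sums over 6 of 7 genes were 61161 to 69027 for HD_miR196a and 54139 to 58833 for HD. They include Slc1a3, a glutamate transporter whose probe was at the floor in HD mouse 1 alone. Without it the sums were closer, 54644 to 55573 for HD_miR196a and 52772 to 54138 for HD. In the astrocyte list only Slc1a3 was higher in every HD_miR196a mouse than in both HD mice. Only Gfap was lower in every HD_miR196a mouse, with a difference of -0.57 ± 0.25 (SE). No gene of these 3 lists was at the floor in all mice, and the sums of the other 8 of the 11 lists overlapped. The part of any of these lists in the Gpx6 value was not tested. Within mice of equal number the Gpx6 difference was 1.14 for mice 1 and 0.99 for mice 2.

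Gpx5 and Gpx6 are neighbours on mouse chromosome 13, with 0 protein-coding genes between them in RefSeq. Gpx5, a cysteine enzyme secreted in the epididymis, was near the olfactory receptor median. It measured 4.47, 5.38 and 5.34 in HD_miR196a mice against 5.60 and 5.01 in HD mice. The groups overlapped, and HD_miR196a mouse 1 stood lowest. The difference was -0.24 ± 0.36 (SE), and it was 0.36 without mouse 1 of each group, so its sign was not stable, and it did not share the separation seen for Gpx6.

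Gpx7 and Gpx8 are cysteine enzymes of the endoplasmic reticulum, where they use peroxide in oxidative protein folding. Gpx7 measured 4.87, 5.27 and 5.27 in HD_miR196a mice against 4.80 and 4.86 in HD mice. The groups did not overlap, but HD_miR196a mouse 1 was only just above the HD mice, and the difference was 0.31 ± 0.16 (SE) at a level near the olfactory receptor median. On the deposited scale it was below them, at 27.0, against 29.6 and 32.8 in HD mice. The groups overlapped without scaling, where the difference was 0.11, with median centring and when the floor was raised to the olfactory receptor median. Gpx8 measured 6.66, 7.45 and 6.90 in HD_miR196a mice against 7.31 and 7.18 in HD mice. Its groups overlapped, with HD_miR196a mouse 2 above both HD mice and the other two below them, and the difference was -0.24 ± 0.26 (SE). The 2 genes thus differed in opposite directions.

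**Figure D3:**
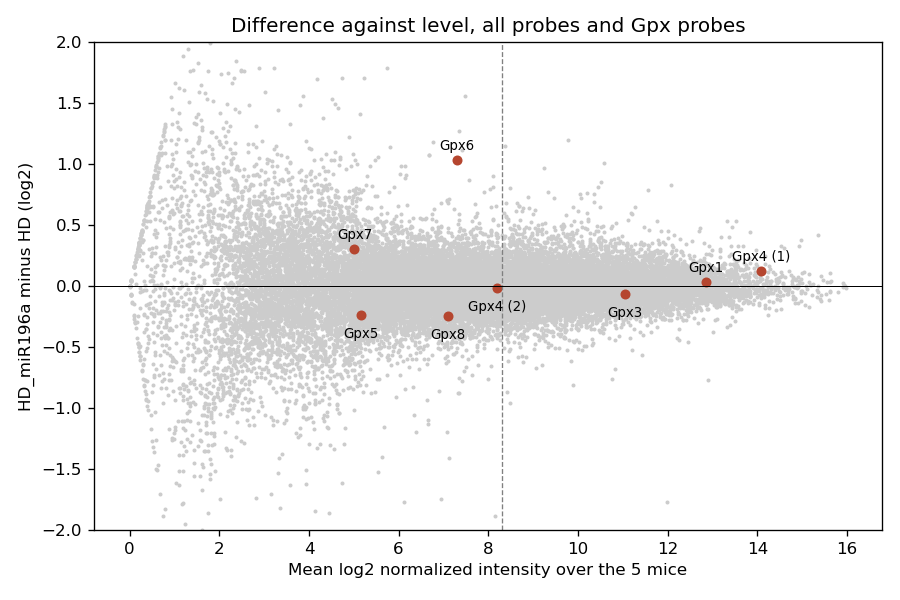
Difference between HD_miR196a and HD mice on the log2 scale against mean level over the 5 mice, for all probes (grey) and the glutathione peroxidase probes (labelled, with the Gpx4 probes numbered). The dashed line marks the olfactory receptor percentile of 8.31, and 39 probes lie outside the plotted range. Gpx6, at 1.03, stands at the edge of the cloud at its level and the other members lie within it.

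Across the family, 4 probes were higher and 4 lower in HD_miR196a mice, with a median difference of 0.01, beside 0.00 over all probes. Of the 8 probes 3 had groups that did not overlap, those of Gpx6 and Gpx7 and the bright one of Gpx4, all higher in HD_miR196a mice. Over all probes the groups did not overlap at 20.3%, and HD_miR196a mice were the higher group at 9.96%. The count for the family is given beside these shares only, since the family was chosen with this comparison in view. It was 1, Gpx6, with median centring. Without scaling it was 2, Gpx6 and the dimmer Gpx4 probe, the latter lower in HD_miR196a mice with a difference of -0.20. With limma's test across the array and a Benjamini-Hochberg adjusted p under 0.05, 0% of probes were called, and 1099 probes had an unadjusted p under 0.05.

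The genes that serve the family are the enzymes that make, recycle and spend glutathione, the parallel thioredoxin system and the selenoprotein machinery. Of 125 such genes in 10 lists, 115 were measured and 71 exceeded the olfactory receptor percentile. Of the 115, 46 were higher and 69 lower in HD_miR196a mice. In limma's test over all probes 0 were called higher and 0 lower, with a smallest adjusted p = 0.979. The same test called 0 probes over the whole array. At an unadjusted p under 0.05 in the same test there were 2 of the 115, beside 1099 of all 26423 probes. Both were lower in HD_miR196a mice and both lay under the olfactory receptor percentile. They were Gclm and Bach1, and Bach1, a repressor of NRF2 target genes, is named because of its value. Groups did not overlap for 26 of the 115 (22.6%), or 10 higher and 16 lower in HD_miR196a mice, near the 20.7% of all named genes (1772 higher and 1888 lower of 17710). The median difference was -0.02, beside 0.00 over 17710 named genes.

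Glutathione synthesis and recycling had 2 of 8 measured genes higher and 6 lower in HD_miR196a mice, with a median of -0.08. Gclm, the modifier subunit of the enzyme that makes the precursor of glutathione, measured 6.57, 6.56 and 6.90 in HD_miR196a mice against 7.00 and 7.17 in HD mice, a difference of -0.41 ± 0.15 (SE). All HD_miR196a mice were below both HD mice. Its catalytic partner Gclc differed by 0.02 ± 0.09 and glutathione synthetase, Gss, by -0.01 ± 0.12. Glutathione reductase, Gsr, which returns the oxidized product of the peroxidases to glutathione, measured 8.58, 8.52 and 8.59 in HD_miR196a mice against 8.65 and 8.77 in HD mice, a difference of -0.15 ± 0.09 (SE). The cystine importer Slc7a11 differed by 0.17 ± 0.15 with overlapping groups, and 4 of 5 genes of cystine and cysteine supply were higher.

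Among peroxiredoxins, thioredoxins and glutaredoxins, which remove peroxides beside the glutathione peroxidases, 6 of 19 were higher and 13 lower in HD_miR196a mice. The median was -0.08, and in 7 of the 19 all HD_miR196a mice were below both HD mice, beside 10.7% of all named genes. Mitochondrial thioredoxin reductase, Txnrd2, measured 8.76, 8.73 and 8.82 in HD_miR196a mice against 9.00 and 8.98 in HD mice, a difference of -0.22 ± 0.09 (SE). Its cytosolic counterpart Txnrd1 differed by -0.11 ± 0.09, and the peroxiredoxins Prdx1 and Prdx6 by -0.27 ± 0.15 and -0.14 ± 0.10. None passed the test, though each of these 4 genes was lower in every HD_miR196a mouse than in both HD mice. Txnrd1 and Txnrd2 exceeded the olfactory receptor percentile, but Prdx1 and Prdx6 lay under it. Of superoxide dismutases and catalase 4 of 5 were measured: mitochondrial Sod2 differed by -0.10 ± 0.09, while a second, dim probe for it gave -0.16 ± 0.13, and catalase, Cat, by -0.05 ± 0.15 near the olfactory receptor median. No probe carried the symbol Sod1.

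Of the glutathione S-transferases, which attach glutathione to reactive compounds, 14 of 24 measured were higher and 10 lower, with a median of 0.04. Gstm1 differed by 0.05 ± 0.09, Gsta4 by 0.05 ± 0.14, Gstp1 by -0.04 ± 0.17 and the membrane-bound Mgst1 by -0.26 ± 0.20, all with overlapping groups. Among genes of glutathione breakdown 6 of 11 were higher, with a median of 0.10. Of the 11, 4 were higher without overlap, beside 1772 of 17710 named genes (10%). All of these 4 lay under the olfactory receptor percentile, and whether their probes report transcript or background was not tested.

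For selenoprotein synthesis and selenium supply, on which Gpx1, Gpx3 and Gpx4 depend, 2 of 11 measured genes were higher and 9 lower in HD_miR196a mice, with a median of -0.03. Secisbp2, which binds the RNA element that directs selenocysteine insertion, differed by 0.02 ± 0.10. Sephs2, the selenophosphate synthetase, differed by -0.10 ± 0.10 with all HD_miR196a mice below both HD mice, and Selenop by 0.00 ± 0.20. Other selenoproteins were higher for 5 of 13 genes, with a median of -0.01, and Selenow, abundant in neurons, differed by 0.00 ± 0.14.

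NRF2 is the regulator that raises many of these genes under oxidative stress, and its list had 4 of 12 measured genes higher and 8 lower, with a median of -0.04. Its own gene, Nfe2l2, differed by 0.02 ± 0.15, its inhibitor Keap1 by -0.03 ± 0.10, and its targets Hmox1 and Nqo1 by -0.05 ± 0.15 and -0.18 ± 0.16. Bach1 measured 8.06, 7.93 and 8.14 in HD_miR196a mice against 8.38 and 8.29 in HD mice, a difference of -0.29 ± 0.11 (SE), with no overlap. Of genes of lipid peroxidation and ferroptosis, the process that Gpx4 restrains, 4 of 13 were higher, with a median of -0.04, and Acsl4, which prepares the lipids that are oxidized, differed by -0.07 ± 0.14.

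**Figure D4:**
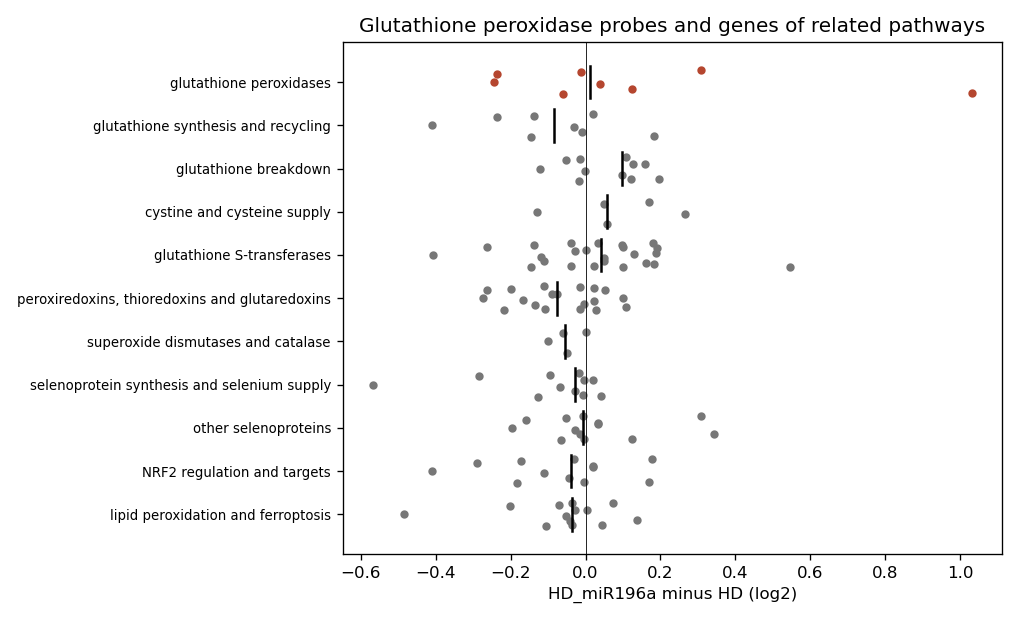
Difference between HD_miR196a and HD mice on the log2 scale for each glutathione peroxidase probe (top row) and for each measured gene of 10 related lists, 1 point per gene at its brightest probe, with the median of each row as a black bar. Vertical scatter within a row only separates points. Row medians lie between -0.08 and 0.10, and Gpx6, at 1.03, is the point farthest to the right.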

How the data were processed

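Striatal RNA of 3 HD_miR196a and 2 HD mice was analysed, grouped by the sample titles. The deposited intensities are linear, 1 per probe and mouse, and include some below 0. Per the labels, 2 technical repeats per mouse were combined. Background handling, scanner software and scaling were not given in the sources used here. Medians of the deposited values were 160.0 to 166.3 in HD_miR196a mice and 184.3 to 185.6 in HD mice.

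Intensities were quantile-normalized, floored at 1 and log2-transformed. Differences and SEs came from R 4.3.3 with limma 3.58.1 (functions lmFit and eBayes, two-sided, Benjamini-Hochberg adjusted over 26423 probes). The fit was also run on simulated independent values, with spreads shuffled between probes. That simulation does not vouch for the SEs of dim probes in these mice. Nothing in the labels says the mice came from separate litters or batches, and the number of arrays limits precision. Of 20377 probes with a symbol, 18213 matched RefSeq (GRCm38.p6) symbols directly and 2126 through a synonym. Genes with several probes are given by the brightest. Members are all Gpx probes. The members and lists were chosen with earlier results of these data known, and named pathway genes were fixed by name, except Bach1, Chac1 and Gstm4, which were named after their values were seen. Alternatives were other scaling, floors, filters, eBayes settings, thresholds, a replicate block and leaving mice out.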

Additional observations from a re-analysis of the deposited data

How the results depend on the processing

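No Gpx probe passed an adjusted p under 0.05 in any fit. Of 98 values of member differences under alternatives, 84 kept their sign and 14 changed it, and Gpx6, Gpx7 and Gpx8 changed it in none. Filtering probes or changing eBayes settings leaves a difference as it is, so part of the kept signs was fixed in advance. Probes called over the array were 0, and became 4 when the floor was the olfactory receptor median, 1 among probes above the lower quartile, 3 with trend and robust settings, 1099 at an unadjusted p under 0.05 (2 of the pathway genes), and 0 to 3 with 1 mouse left out. The 3 member probes without overlap became 1 with median centring, 1 among the 3 probes above the olfactory receptor percentile, 3 to 5 with 1 mouse left out, and 5 without mouse 1 of each group, a setting chosen after seeing the data. With fewer mice overlap is rarer by construction, and otherwise the cause was not tested. A fit with 1 HD mouse assumes that it varies like the other group. With the mouse number as a replicate block, 0 probes were called. In that fit Gpx6 differed by 1.06 ± 0.10 (SE) and Gpx3 by -0.06 ± 0.11. HD_miR196a mouse 3 had no HD mouse of its number, so the fit compared only the mice numbered 1 and 2. Its differences equal those without HD_miR196a mouse 3, and its SEs rest on fewer mice than the main ones. Mice of equal number had deviations from group means that correlated at 0.24 for number 1 and 0.17 for number 2. The deviations of the 2 HD mice are equal and opposite by construction, so these 2 correlations are not independent. The labels do not say that numbers pair the mice. Signal near the background limits Gpx5 to Gpx8.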
